A study of Mus musculus with 20 samples.

Results

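The genes that write, copy, oxidise and remove methyl groups on DNA were followed in mouse haematopoietic stem and progenitor cells. They were taken as 10 named genes, and all 10 of 10 were found among the 46078 gene IDs of the table. They were chosen by name and function, with earlier results of these data known. The members were the dioxygenases Tet1, Tet2 and Tet3, the methyltransferases Dnmt1, Dnmt3a and Dnmt3b, the maintenance cofactor Uhrf1, and the DNA glycosylases Tdg, Mbd4 and Smug1. RNA sequencing was done on LSK cells, the lineage-negative, Kit-positive, Sca1-positive bone marrow fraction that holds stem cells and multipotent progenitors. All mice were C57Bl/6J and 3 to 4 months old, and RNA was taken from pools of 2 mice, 1 pool per library. There were 4 pools in each of 5 groups: Idh1R132H (genotype Idh1LSL-R132H/+;Vav-Cre), Idh2R140Q (Idh2LSL-R140Q/+;Vav-Cre), Idh2R172K (Idh2LSL-R172K/+;Vav-Cre), Tet2KO (Tet2-/-) and WT (+/+;Vav-Cre). WT and the 3 Idh groups therefore shared Vav-Cre, a Cre recombinase driven by a promoter active across blood cells, and the genotype given for Tet2KO names no Cre, so the loss of Tet2 and a difference in Cre cannot be told apart. Each group held 2 pools of male and 2 of female mice by their sex-linked transcripts.

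Cytosine methylation at CpG sites is set up by DNMT3A and DNMT3B and is copied after replication by DNMT1, which UHRF1 brings to hemimethylated DNA. TET enzymes oxidise 5-methylcytosine in a reaction that consumes 2-oxoglutarate, and TDG excises the most oxidised forms so that base excision repair can restore an unmodified cytosine. MBD4 removes thymine mispaired with guanine at CpG sites, and SMUG1 removes uracil and oxidised pyrimidines. The altered IDH enzymes make 2-hydroxyglutarate, an inhibitor of 2-oxoglutarate-dependent dioxygenases that include the TET enzymes. TET2, DNMT3A, IDH1 and IDH2 are each recurrently mutated in myeloid blood cancers.

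Tet1, Tet2, Tet3 and Dnmt3a rose together in Idh2R172K, as described below, and Dnmt1 and Uhrf1 varied together across libraries. Their promoter windows are shown because CpG methylation is what these proteins act on. Each window runs from 250 bases before to 50 bases after a transcription start (RefSeq, GRCm38.p6, 300 bases, read 5′ to 3′ on the strand of the gene), and capitals mark every CG dinucleotide. The windows lie at chr10:62887275-62887574 (minus strand) for Tet1, chr3:133544341-133544640 (minus strand) for Tet2, chr6:83441629-83441928 (minus strand) for Tet3, chr12:3806730-3807029 (plus strand) for Dnmt3a, chr9:20952574-20952873 (minus strand) for Dnmt1 and chr17:56304063-56304362 (plus strand) for Uhrf1.
Tet1: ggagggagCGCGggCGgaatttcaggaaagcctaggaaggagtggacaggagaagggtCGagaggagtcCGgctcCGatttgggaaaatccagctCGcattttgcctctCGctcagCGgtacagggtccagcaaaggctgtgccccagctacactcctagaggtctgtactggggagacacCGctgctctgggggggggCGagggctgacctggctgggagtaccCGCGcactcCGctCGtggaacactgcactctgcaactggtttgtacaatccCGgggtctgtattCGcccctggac
Tet2: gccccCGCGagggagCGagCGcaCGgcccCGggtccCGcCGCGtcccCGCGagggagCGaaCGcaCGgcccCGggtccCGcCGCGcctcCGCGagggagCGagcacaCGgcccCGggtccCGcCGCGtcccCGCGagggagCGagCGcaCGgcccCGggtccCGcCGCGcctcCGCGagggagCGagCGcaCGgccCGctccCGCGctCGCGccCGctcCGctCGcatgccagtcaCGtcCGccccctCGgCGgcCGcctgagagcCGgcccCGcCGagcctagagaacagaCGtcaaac
Tet3: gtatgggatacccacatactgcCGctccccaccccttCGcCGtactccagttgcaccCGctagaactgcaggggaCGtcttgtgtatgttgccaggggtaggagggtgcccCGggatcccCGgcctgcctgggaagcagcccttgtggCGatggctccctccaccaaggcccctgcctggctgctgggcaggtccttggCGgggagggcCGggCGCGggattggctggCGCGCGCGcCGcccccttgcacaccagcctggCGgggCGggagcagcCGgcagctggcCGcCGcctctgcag
Dnmt3a: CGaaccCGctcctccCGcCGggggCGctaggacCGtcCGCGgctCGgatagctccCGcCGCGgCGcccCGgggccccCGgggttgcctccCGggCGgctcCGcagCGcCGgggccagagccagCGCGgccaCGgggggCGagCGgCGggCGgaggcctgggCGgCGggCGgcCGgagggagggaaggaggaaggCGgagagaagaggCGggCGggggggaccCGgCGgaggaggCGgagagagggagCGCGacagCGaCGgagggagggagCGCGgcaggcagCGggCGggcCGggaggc
Dnmt1: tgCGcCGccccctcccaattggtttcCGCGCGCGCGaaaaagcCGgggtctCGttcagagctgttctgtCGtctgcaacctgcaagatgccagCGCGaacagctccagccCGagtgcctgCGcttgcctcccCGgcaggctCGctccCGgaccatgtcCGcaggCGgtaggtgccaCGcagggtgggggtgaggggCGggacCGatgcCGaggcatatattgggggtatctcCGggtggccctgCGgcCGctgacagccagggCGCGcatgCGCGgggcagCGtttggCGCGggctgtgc
Uhrf1: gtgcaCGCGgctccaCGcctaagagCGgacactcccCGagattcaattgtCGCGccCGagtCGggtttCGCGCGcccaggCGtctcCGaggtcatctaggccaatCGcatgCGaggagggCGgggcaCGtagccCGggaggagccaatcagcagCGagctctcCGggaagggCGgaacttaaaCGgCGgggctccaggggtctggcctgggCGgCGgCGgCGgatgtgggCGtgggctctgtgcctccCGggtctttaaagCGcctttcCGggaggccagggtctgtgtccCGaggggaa

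The Tet2 window held 57 CG dinucleotides, at the 99.8th percentile of the 32851 promoter windows of that length in the same table, whose median was 7 and whose quartiles were 3 and 20. Dnmt3a had 46, Dnmt1 and Uhrf1 had 33 each, Tet3 had 22 and Tet1 had 17. Among the members not printed, Dnmt3b had 30, Tdg 26, Mbd4 25 and Smug1 15, so that all 10 members had a window above the median. Dnmt1 and Dnmt3a had 3 windows each and Uhrf1 had 2. The lowest counts among these further starts were 2 for Dnmt1, 18 for Dnmt3a and 12 for Uhrf1. The printed window had the highest count for Dnmt1 and Uhrf1, and another Dnmt3a window had 47. The Uhrf1 window with 12 lies at chr17:56303087-56303386, over the gene start given next, and the printed one lies inside the gene. In GENCODE M21 on mm10 the TET genes lie as Tet1 at chr10:62804570-62908996 (minus strand), Tet2 at chr3:133463679-133545139 (minus strand) and Tet3 at chr6:83362373-83459084 (minus strand). The methylation genes are Dnmt1 at chr9:20907209-20959888 (minus strand), Dnmt3a at chr12:3806007-3914443 (plus strand), Dnmt3b at chr2:153649450-153687730 (plus strand) and Uhrf1 at chr17:56303321-56323486 (plus strand), and the glycosylase genes are Tdg at chr10:82629828-82650799 (plus strand), Mbd4 at chr6:115840697-115853371 (minus strand) and Smug1 at chr15:103153290-103167092 (minus strand). The values are sums over all exons, coding and untranslated, of each gene. Methylation itself was not analysed here, and the counts describe the reference sequence only.

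Levels are in TPM, a measure corrected for gene length and scaled to the same total in every library, so that levels can be compared between genes. All 10 members passed the filter of a mean of at least 1 TPM over the 20 libraries, as did 14176 genes in all. Dnmt1 (mean 283 TPM over the 20 libraries) and Uhrf1 (243 TPM) were the most abundant members and ranked 498th and 620th among the genes of the table by mean level. Dnmt3b followed at 57.0 TPM, and the other 7 members had means between 9.82 TPM for Tet2 and 27.4 TPM for Mbd4. Read counts rebuilt from the TPM values gave 35.1 to 44.9 M reads per library with a median of 39.2 M (M, 1000000 reads), and no member had fewer than 753 reads in any library. Exons of other genes on the opposite strand covered 6.83% of the exon bases of Tdg (Glt8d2), 5% of Mbd4 (Gm44206) and under 1% of Dnmt3a and Tet2, and none of the other 6. As it is not given in the sources used here whether counting used strand, a few reads of those genes could come from either.

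The libraries did not stand equally. In Idh1R132H, Idh2R140Q, Idh2R172K and WT the library numbered 4 had the lowest share of TPM from Gm23935, a ribosomal RNA-like gene (7.55 to 8.13%), and Tet2KO library 2 had the highest (20.0%), against a median of 11.9% over the 20 libraries. In library 4 the ratio to the mean of the other 3 libraries was above 1 in all 4 groups for 9 members and in 3 of 4 for Tet1. That ratio ran from 1.42 to 1.81 for Mbd4 and from 1.25 to 2.10 for Dnmt3b. The median over all genes tested, of a ratio with 1 TPM added to both sides, was 1.11 to 1.18. In Tet2KO library 2 the members stood at 0.357 (Dnmt1) to 0.749 (Tet3) of the mean of the other 3 libraries. The median over all genes tested, again with 1 TPM added to both sides, was 0.749. Results are also given without these 5 libraries. They also stood apart in the members' own values, and the p-values of that fit take no account of this.

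**Figure D1:**
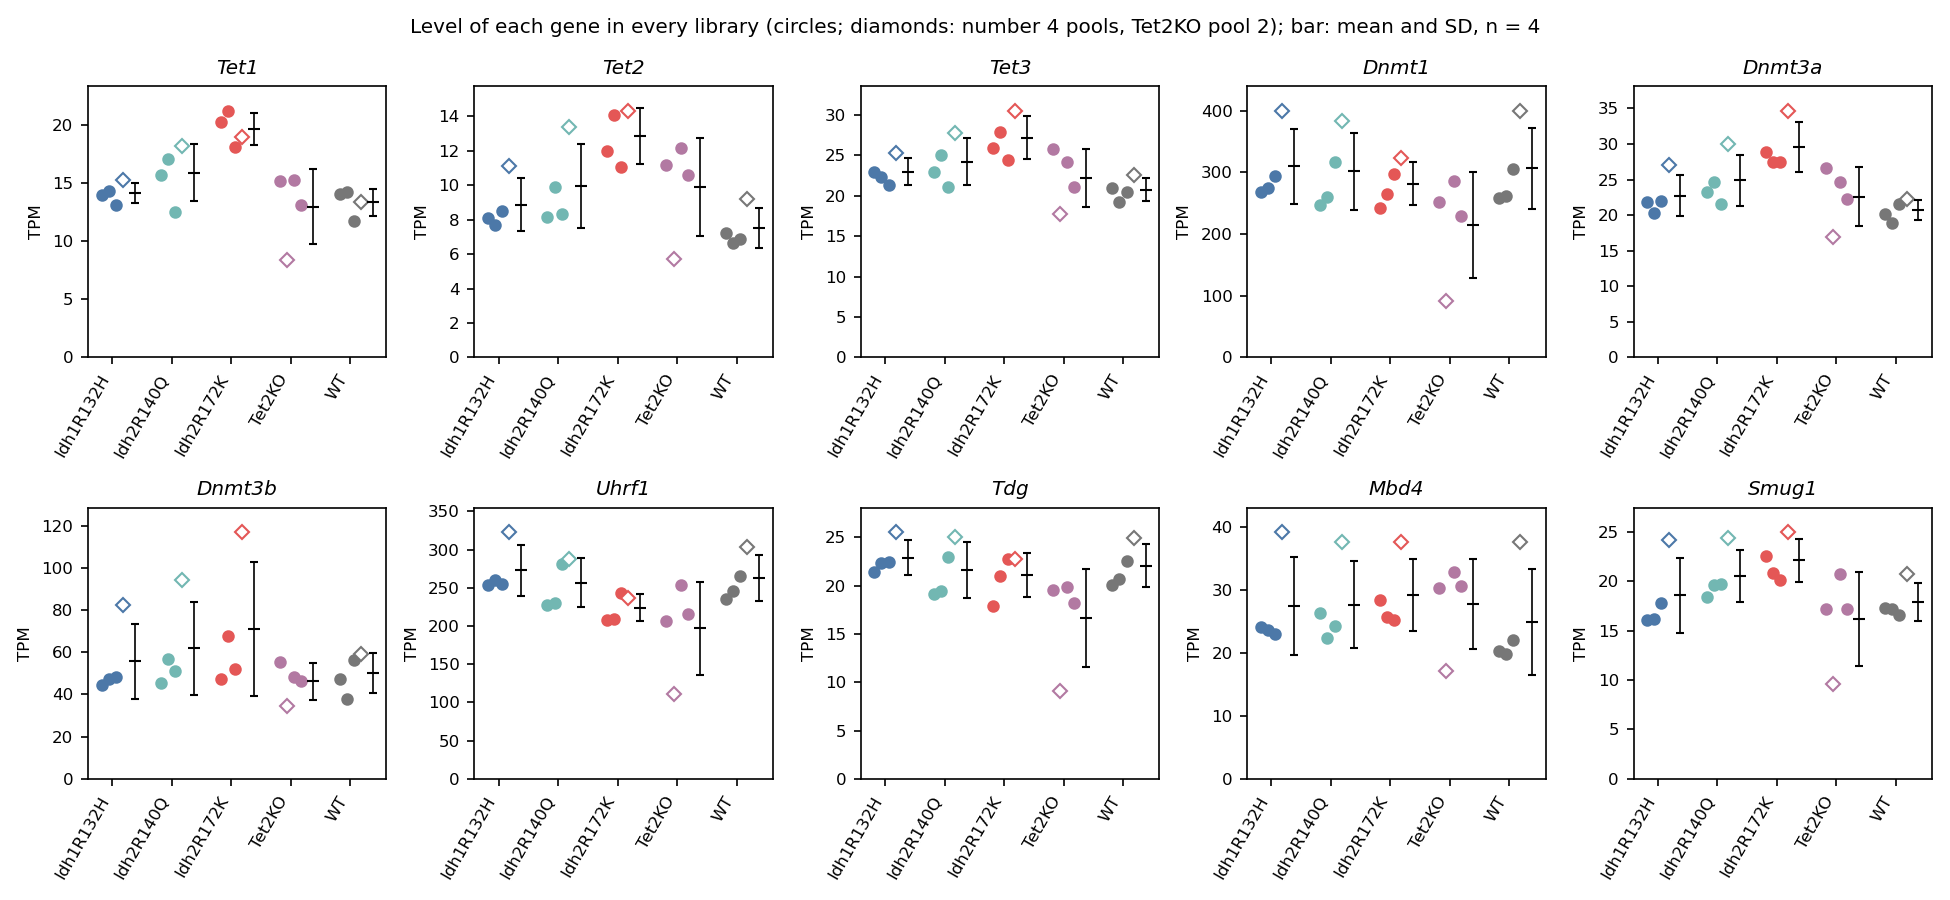
TPM of each of the 10 genes in every library, by group, with the mean and SD (n = 4) to the right of the points and diamonds for the libraries numbered 4 of the Idh groups and WT and for Tet2KO library 2. Tet1, Tet2, Tet3 and Dnmt3a lie wholly higher in Idh2R172K than in WT, and the Tet2KO diamond is the lowest Tet2KO point in all 10 panels.

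The 4 members that changed against WT were Tet1, Tet2, Tet3 and Dnmt3a, all of them higher in Idh2R172K. Differences are given on the log2(TPM + 1) scale with their standard error, from a limma model of the 5 groups, and a gene was called at a Benjamini-Hochberg adjusted p under 0.05 over all genes tested. In Idh2R172K against WT 4 of 10 members were called, all higher, where 15.4% of all genes tested were called, 8.03% higher and 7.33% lower. Of those called genes 52.3% were higher, or 44.1% with median-of-ratios scaling and 44.6% with quantile scaling, and the 4 members were called higher under both. The median difference of the 10 members was 0.33, against 0.11 for all genes tested. In bulk RNA, fewer cells of a type and less RNA per cell cannot be told apart, and this holds for every difference below.

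Tet2, the TET enzyme most often lost in myeloid disease, had 12.0, 14.1, 11.0 and 14.3 TPM in Idh2R172K, against 7.22, 6.67, 6.89 and 9.23 TPM in WT. Every Idh2R172K library was higher than every WT library. The difference was 0.71 ± 0.20 (adjusted p = 0.0188), a 1.63-fold higher level on that scale. Tet1, best known from embryonic stem cells, had 20.3, 21.3, 18.2 and 19.0 TPM in Idh2R172K, against 14.1, 14.3, 11.7 and 13.4 TPM in WT. The groups did not overlap, and the difference was 0.53 ± 0.15 (adjusted p = 0.0237).

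Tet3, the most abundant TET transcript in all 5 groups, had 25.9, 27.9, 24.4 and 30.5 TPM in Idh2R172K, against 20.9, 19.2, 20.4 and 22.5 TPM in WT. Again no library overlapped, and the difference was 0.37 ± 0.12 (adjusted p = 0.0385). Dnmt3a, the de novo methyltransferase whose loss expands blood stem cells in mice, had 28.8, 27.4, 27.4 and 34.7 TPM in Idh2R172K, against 20.2, 19.0, 21.5 and 22.3 TPM in WT. The groups were separate here too, and the difference was 0.49 ± 0.14 (adjusted p = 0.0192). How many of all genes tested had separate groups is not given here for any comparison. The separation of Tet1, Tet2, Tet3 and Dnmt3a is therefore a description and adds nothing to their tests. In Idh2R172K against WT, 4086 of the 14176 genes tested had an unadjusted limma p under 0.05. The summed level of the 3 TET genes was 59.7 ± 4.80 TPM in Idh2R172K and 41.6 ± 2.67 TPM in WT (SD, n = 4 each).

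These calls rested on few libraries. The call of Tet2 was lost without Idh2R172K library 2 or 4 or WT library 2 or 3 (adjusted p at most 0.0580), and that of Tet1 without Idh2R172K library 1 or 2 or WT library 3 (at most 0.0781). The call of Dnmt3a was lost without Idh2R172K library 4 or WT library 2 (at most 0.0736). Tet3 was the least stable of the 4 and lost its call in 7 of the 20 fits that left out 1 library (adjusted p at most 0.124). Its call was lost without Idh1R132H library 1, Idh2R172K library 1, 2 or 4, or WT library 1, 2 or 3. In all of those fits the 4 differences stayed above 0, at 0.31 or more.

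**Figure D2:**
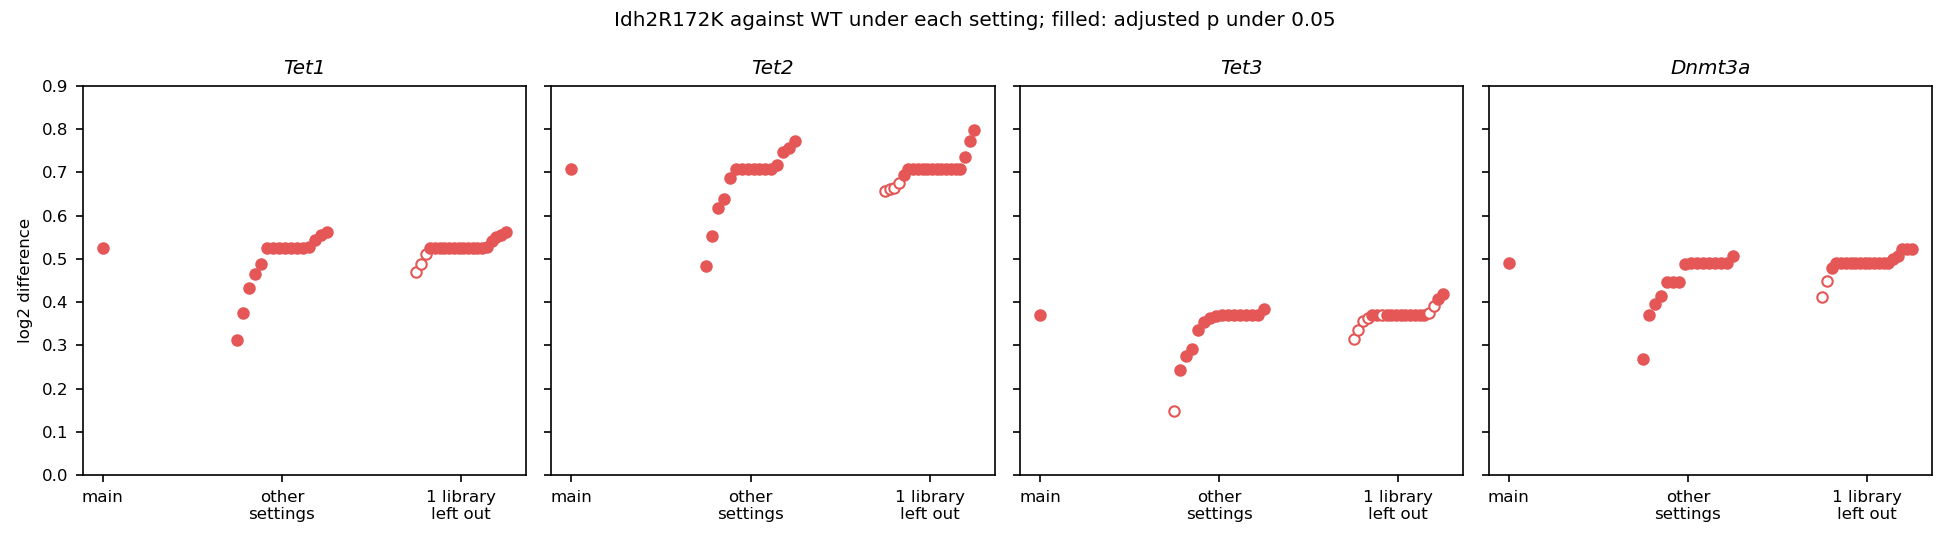
Difference between Idh2R172K and WT on the log2 scale for Tet1, Tet2, Tet3 and Dnmt3a in the main fit, under the 16 other settings and with each of the 20 libraries left out, filled where the adjusted p was under 0.05. All points are above 0, and the lowest, for Tet3 at 0.15, is the fit with the trend over exon length removed.

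Length moved with this result. The exons of Tet1, Tet2, Tet3 and Dnmt3a cover 15457, 16870, 16695 and 16642 bases, and those of the other 6 members cover 4259 (Uhrf1) to 7377 (Dnmt1) bases. Among the 282 genes tested with exons of 15000 bases or more, the median difference between Idh2R172K and WT was 0.26, with 13.5% called higher and 3.55% called lower. Among the 1682 genes of 1000 to 2000 bases the median was 0.02, the lowest of the classes. The medians did not rise evenly with length, as the 2046 genes shorter than 1000 bases had 0.14. The 4535 genes of 4000 to 8000 bases, the class of the other 6 members, had 0.12. With the trend over exon length taken out of the differences, 21.5% of genes were called. Tet2 was then at 0.48 (adjusted p = 0.000207), Dnmt3a at 0.27 (adjusted p = 0.00688), Tet1 at 0.31 (adjusted p = 0.0477) and Tet3 at 0.15 (adjusted p = 0.177), which ended the call of Tet3. Uhrf1 was lower in the same fit by limma, at -0.31 (adjusted p = 0.0350).

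**Figure D3:**
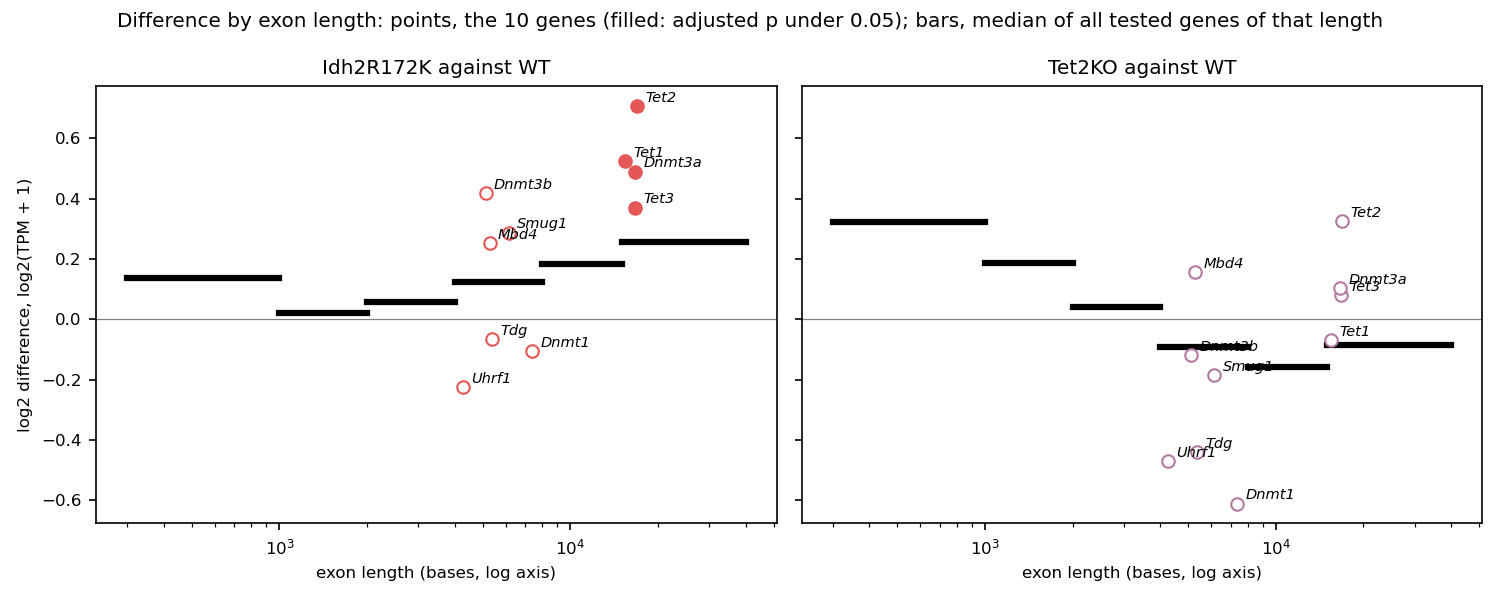
Difference on the log2(TPM + 1) scale against exon length in bases (log axis) for the 10 genes, in Idh2R172K against WT and in Tet2KO against WT, with the median of all genes tested in 6 length classes as bars whose outer ends are arbitrary. The 4 filled points, Tet1, Tet2, Tet3 and Dnmt3a, are the 4 longest genes, and each lies higher than the bar of its class, which is at 0.26.

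The other 6 members did not pass the test in Idh2R172K against WT, and their 95% intervals all held 0. Dnmt3b, the second de novo methyltransferase, had 47.3, 67.6, 52.2 and 117 TPM in Idh2R172K and 47.4, 38.0, 56.5 and 59.1 TPM in WT, with a difference of 0.42 (95% interval -0.16 to 0.99). Its highest value was in library 4, and the groups overlapped. Dnmt1, the maintenance methyltransferase, averaged 282 ± 35.4 TPM in Idh2R172K and 306 ± 65.8 TPM in WT (SD, n = 4 each), with a difference of -0.11 (-0.67 to 0.45). Uhrf1 averaged 224 ± 18.1 TPM in Idh2R172K and 262 ± 30.2 TPM in WT (SD, n = 4 each), with a difference of -0.22 (-0.61 to 0.16). Among the glycosylases, Smug1 was at 0.29 (-0.09 to 0.67), Mbd4 at 0.25 (-0.25 to 0.76) and Tdg at -0.06 (-0.44 to 0.31).

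Without the 5 libraries that stood apart, Tet1, Tet2, Tet3 and Dnmt3a were called again, and Mbd4 and Smug1 joined them. In that fit 32.7% of all genes tested were called, 67.7% of them higher. The differences were 0.54 for Tet1, 0.75 for Tet2, 0.35 for Tet3 and 0.45 for Dnmt3a. Mbd4 was at 0.34 (limma adjusted p = 0.00386) and Smug1 at 0.30 (limma adjusted p = 0.0127). Mbd4 had 28.4, 25.7 and 25.2 TPM in Idh2R172K libraries 1 to 3, against 20.3, 19.8 and 22.0 TPM in WT libraries 1 to 3, while library 4 stood at 37.5 TPM in both groups.

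**Figure D4:**
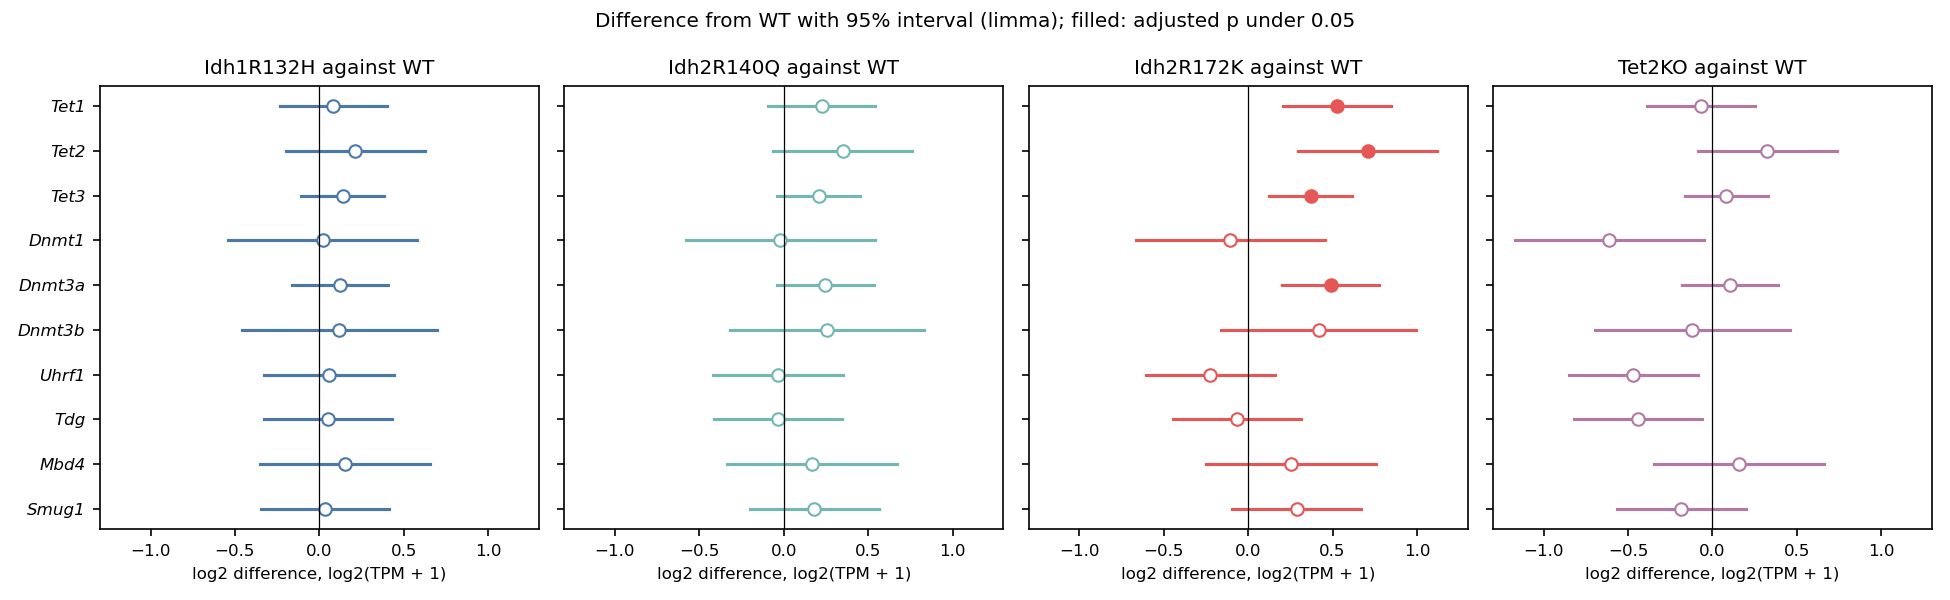
Difference of each mutant group from WT on the log2(TPM + 1) scale with its 95% interval from limma for the 10 genes, filled where the adjusted p was under 0.05. The filled points are Tet2, Tet1, Dnmt3a and Tet3 in Idh2R172K against WT, at 0.37 to 0.71.

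Neither Idh1R132H nor Idh2R140Q gave a call among the members. In Idh1R132H against WT, limma called 0 of 10 members (0 at an unadjusted p under 0.05) and 0.00705% of all genes tested, and differences ran from 0.02 for Dnmt1 to 0.21 for Tet2. In Idh2R140Q against WT it called 0 of 10 (0 at an unadjusted p under 0.05) and 0% of all genes tested, where 407 genes had an unadjusted p under 0.05. limma-voom on the rebuilt counts called 0 members and 0% of the genes it tested in each. The 4 genes that rose in Idh2R172K had their largest Idh2R140Q difference at Tet2, 0.35 (95% interval -0.06 to 0.76), followed by Dnmt3a at 0.25 (-0.04 to 0.53), Tet1 at 0.23 (-0.09 to 0.54) and Tet3 at 0.21 (-0.04 to 0.45). In Idh1R132H the same 4 were at 0.21 (-0.20 to 0.62) for Tet2, 0.14 (-0.11 to 0.38) for Tet3, 0.12 (-0.16 to 0.41) for Dnmt3a and 0.08 (-0.24 to 0.40) for Tet1. These comparisons share the WT libraries. For Tet2 the libraries behind these values had 8.11, 7.71, 8.51 and 11.1 TPM in Idh1R132H and 8.14, 9.91, 8.32 and 13.4 TPM in Idh2R140Q, so that both overlapped WT and the highest of each was library 4.

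The mean levels of Tet1, Tet2, Tet3 and Dnmt3a had Idh2R172K first and Idh2R140Q second of the 5 groups. Tet2 averaged 8.86 ± 1.54 TPM in Idh1R132H, 9.94 ± 2.44 TPM in Idh2R140Q, 12.9 ± 1.61 TPM in Idh2R172K, 9.91 ± 2.85 TPM in Tet2KO and 7.50 ± 1.17 TPM in WT (SD, n = 4 each). Tet1 averaged 14.2 ± 0.863 TPM in Idh1R132H, 15.9 ± 2.46 TPM in Idh2R140Q, 19.7 ± 1.38 TPM in Idh2R172K, 13.0 ± 3.22 TPM in Tet2KO and 13.4 ± 1.15 TPM in WT. Tet3 averaged 22.9 ± 1.68 TPM in Idh1R132H, 24.2 ± 2.88 TPM in Idh2R140Q, 27.2 ± 2.65 TPM in Idh2R172K, 22.2 ± 3.56 TPM in Tet2KO and 20.8 ± 1.38 TPM in WT. Dnmt3a averaged 22.7 ± 2.92 TPM in Idh1R132H, 24.9 ± 3.62 TPM in Idh2R140Q, 29.6 ± 3.46 TPM in Idh2R172K, 22.6 ± 4.16 TPM in Tet2KO and 20.7 ± 1.46 TPM in WT. Without Tet2KO library 2 the Tet2KO mean of Tet2 was 11.3 TPM, above Idh2R140Q. No neighbouring pair of groups in the order of any member differed at an adjusted p under 0.05. The F test over the 5 groups called Tet1 alone of the 10 (limma adjusted p = 0.0396), where it called 23.1% of all genes tested. With 1 library left out it called 0 to 3 members, and 0 without Idh1R132H library 1, 2 or 3, Idh2R140Q library 1 or 2, any 1 of the Idh2R172K libraries, Tet2KO library 4, or WT library 1, 3 or 4.

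The methylation-copying and repair genes were ordered in other ways. Dnmt1 averaged 309.5 ± 61.4 TPM in Idh1R132H, 302 ± 62.4 TPM in Idh2R140Q, 282 ± 35.4 TPM in Idh2R172K, 215 ± 85.3 TPM in Tet2KO and 306 ± 65.8 TPM in WT (SD, n = 4 each). Uhrf1 averaged 273 ± 33.3 TPM in Idh1R132H, 257 ± 32.0 TPM in Idh2R140Q, 224 ± 18.1 TPM in Idh2R172K, 197 ± 61.0 TPM in Tet2KO and 262 ± 30.2 TPM in WT. Both had their lowest mean in Tet2KO and the next in Idh2R172K. Without Tet2KO library 2 the Tet2KO mean was 256 TPM for Dnmt1, still the lowest, and 226 TPM for Uhrf1, above the 224 TPM of Idh2R172K. Dnmt3b averaged 55.6 ± 17.9 TPM in Idh1R132H, 61.9 ± 22.1 TPM in Idh2R140Q, 71.0 ± 31.8 TPM in Idh2R172K, 46.2 ± 8.68 TPM in Tet2KO and 50.3 ± 9.59 TPM in WT, with Idh2R172K first and Tet2KO last. Without Tet2KO library 2 the Tet2KO mean of Dnmt3b was 50.1 TPM, beside 50.3 TPM in WT. Its spread was the widest of the 10, with a coefficient of variation of 34.9% over the 20 libraries, and the highest library was number 4 in all 4 groups other than Tet2KO.

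Among the glycosylases, Tdg averaged 22.9 ± 1.81 TPM in Idh1R132H, 21.6 ± 2.86 TPM in Idh2R140Q, 21.1 ± 2.28 TPM in Idh2R172K, 16.7 ± 5.10 TPM in Tet2KO and 22.1 ± 2.18 TPM in WT (SD, n = 4 each). Smug1 averaged 18.6 ± 3.81 TPM in Idh1R132H, 20.5 ± 2.66 TPM in Idh2R140Q, 22.1 ± 2.16 TPM in Idh2R172K, 16.2 ± 4.72 TPM in Tet2KO and 17.9 ± 1.92 TPM in WT. Mbd4 averaged 27.5 ± 7.80 TPM in Idh1R132H, 27.6 ± 6.84 TPM in Idh2R140Q, 29.2 ± 5.74 TPM in Idh2R172K, 27.7 ± 7.13 TPM in Tet2KO and 24.9 ± 8.45 TPM in WT, with an adjusted p of 0.931 in limma's F test over the 5 groups. Smug1 and Mbd4 had Idh2R172K first, and Tdg and Smug1 had Tet2KO last. Without Tet2KO library 2 the Tet2KO mean was 31.2 TPM for Mbd4, which put Tet2KO first, 18.4 TPM for Smug1, above WT, and 19.2 TPM for Tdg, still last.

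Set directly against the other Idh groups, Idh2R172K gave 0 called members against Idh1R132H, where 13.5% of all genes tested were called. There 3 members (Tet1, Tet2 and Dnmt3a) and 3624 of the 14176 genes tested had an unadjusted p under 0.05. Against Idh2R140Q, Idh2R172K gave 0 called members (0 at an unadjusted p under 0.05), where 10.5% of all genes were called. Idh2R140Q against Idh1R132H gave 0 (0 unadjusted), where 0.00705% were called. Tet1 had the smallest p of these, at 0.44 ± 0.15 in Idh2R172K against Idh1R132H (adjusted p = 0.0602). In these 3 comparisons same-numbered libraries deviated together, and a fit with the library number as a replicate block, without Tet2KO, moved the calls. Against Idh1R132H it called 6 members by limma, with Tet1 (0.44, adjusted p = 0.000371), Tet2 (0.50, adjusted p = 0.000989), Tet3 (0.23, adjusted p = 0.00484), Dnmt3a (0.37, adjusted p = 0.000631) and Smug1 (0.25, adjusted p = 0.00852) higher and Uhrf1 lower (-0.28, adjusted p = 0.00161). Against Idh2R140Q it called the same genes except Smug1, with differences of 0.30 for Tet1, 0.36 for Tet2, 0.16 for Tet3, 0.24 for Dnmt3a and -0.19 for Uhrf1 (adjusted p at most 0.0377). The block also raised the share of all genes called, to 41.1% against Idh1R132H and 33% against Idh2R140Q. In Idh2R140Q against Idh1R132H it called 0 members and 0.00705% of all genes.

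In Tet2KO against WT, limma called 0 of 10 members (3 at an unadjusted p under 0.05), where 7.05% of all genes tested were called, 5.02% higher and 2.02% lower. Of those called genes 71.3% were higher, or 35.5% with median-of-ratios scaling, 42.2% with quantile scaling and 58.4% with TPM rescaled without the most abundant genes. The 3 members at an unadjusted p under 0.05 were Dnmt1, Uhrf1 and Tdg, all with lower values in Tet2KO. Of the 14176 genes tested, 3765 were under that p too, so such values were common among all genes. Dnmt1 had 251, 91.3, 286 and 229.9 TPM in Tet2KO, against 259, 262, 305 and 399.8 TPM in WT, with a difference of -0.61 ± 0.27 (limma adjusted p = 0.154). Uhrf1 had 207, 111, 254 and 216 TPM in Tet2KO, against 235, 246, 265 and 304 TPM in WT, with a difference of -0.47 ± 0.18 (limma adjusted p = 0.112). Tdg had 19.5, 9.09, 19.9 and 18.2 TPM in Tet2KO, against 20.1, 20.7, 22.6 and 25.0 TPM in WT, with a difference of -0.44 ± 0.18 (limma adjusted p = 0.131). Tet2KO library 2 was the lowest for all 3 and WT library 4 the highest. The groups were separate for Tdg only, a description given without the share over all genes. Without Tet2KO library 2 alone the differences were -0.24 for Dnmt1, -0.21 for Uhrf1 and -0.19 for Tdg, and without Tet2KO library 3 Uhrf1 was called lower, at -0.61 (limma adjusted p = 0.0455). limma-voom on the rebuilt counts called 4 members and 18.5% of the genes it tested, with Dnmt1 (-0.62, adjusted p = 0.0262), Uhrf1 (-0.47, adjusted p = 0.0128) and Tdg (-0.47, adjusted p = 0.0136) lower and Tet2 higher (0.36, adjusted p = 0.0489).

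Without the 5 libraries that stood apart, other members were called in Tet2KO against WT. These were Mbd4 at 0.57 (limma adjusted p = 0.000133), Tet2 at 0.63 (limma adjusted p = 0.000550) and Dnmt3a at 0.26 (limma adjusted p = 0.0191), all higher, where 31.8% of all genes tested were called, 89.5% of them higher, and the median difference of all genes was 0.16. For these members WT library 4 was the highest of WT and Tet2KO library 2 the lowest of Tet2KO. Leaving out both raises the differences, and the adjusted p-values take no account of that choice. Mbd4, the glycosylase for thymine at CpG sites, had 30.2, 32.9 and 30.7 TPM in Tet2KO libraries 1, 3 and 4, against 20.3, 19.8 and 22.0 TPM in WT libraries 1 to 3. Tet2KO library 2 had 17.2 TPM and WT library 4 had 37.5 TPM, so that with all libraries the groups overlapped and the difference was 0.16 (95% interval -0.35 to 0.66). Dnmt1, Uhrf1 and Tdg were at -0.11, -0.14 and -0.13 without the 5 libraries. With the length trend removed, where 16.5% of all genes tested were called, 5 members were called by limma, Tet2 (0.44) and Dnmt3a (0.22) higher and Dnmt1 (-0.48), Uhrf1 (-0.43) and Tdg (-0.36) lower. Genes shorter than 1000 bases had a median difference of 0.32 in Tet2KO against WT and those of 8000 to 15000 bases one of -0.16. No member lies in either class. The median was -0.09 at 15000 bases or more, the class of Tet1, Tet2, Tet3 and Dnmt3a. It was -0.09 at 4000 to 8000 bases too, the class of the other members.

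The targeted gene itself, Tet2, had 11.2, 5.74, 12.1 and 10.6 TPM in the libraries labelled Tet2KO, against 7.22, 6.67, 6.89 and 9.23 TPM in WT. In 3 of the 4 Tet2KO libraries it was higher than in every WT library. These are sums over all exons of the gene, and the sources used here do not give which exons were removed, so the value does not check the knockout. The difference was 0.32 (95% interval -0.09 to 0.74), and without Tet2KO library 2 alone it was 0.54 (limma adjusted p = 0.0522).

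Between the mutants, Tet2KO against Idh2R172K called 2 of 10 members, both lower, where 26.8% of all genes tested were called and 14.9% were called lower. Tet1 had 15.2, 8.40, 15.3 and 13.1 TPM in Tet2KO, against 20.3, 21.3, 18.2 and 19.0 TPM in Idh2R172K, with a difference of -0.59 ± 0.15 (limma adjusted p = 0.00910). Dnmt3a had 26.6, 17.0, 24.7 and 22.3 TPM in Tet2KO, against 28.8, 27.4, 27.4 and 34.7 TPM in Idh2R172K, with a difference of -0.38 ± 0.14 (limma adjusted p = 0.0440). Neither gene overlapped between the groups. How many of all genes tested were separate there is not given, so this is a description only. Of the 14176 genes tested, 5684 had an unadjusted limma p under 0.05 in Tet2KO against Idh2R172K. The call of Tet1 held in all 20 fits that left out 1 library, and that of Dnmt3a in 7 of them (adjusted p at most 0.135). It was lost without library 1, 2 or 3 of Idh1R132H, 1 or 2 of Idh2R140Q, any of Idh2R172K, 2 or 4 of Tet2KO, or 1 or 3 of WT. In a fit of these 2 groups alone neither was called (limma adjusted p = 0.0914 for Tet1). Without the 5 libraries, where 35.1% of all genes tested were called, Tet1 stayed called, at -0.43 (limma adjusted p = 0.0106), and Dnmt3a, at -0.18, did not. Mbd4 was then higher in Tet2KO, at 0.24 (limma adjusted p = 0.0233). With the length trend removed, where 32.2% were called, Tet1 was at -0.26 (limma adjusted p = 0.0797) and Dnmt3a at -0.05, both not called, and Smug1 was lower, at -0.25 (limma adjusted p = 0.0197). Tet2KO gave 0 called members against Idh1R132H (3 at an unadjusted p under 0.05), where 13.5% of all genes were called, and 0 against Idh2R140Q (3 unadjusted), where 9.54% were called. The 3 were Dnmt1, Uhrf1 and Tdg in both, as against WT, and all of these comparisons share the Tet2KO libraries. Of the 14176 genes tested, 4465 against Idh1R132H and 4272 against Idh2R140Q had an unadjusted p under 0.05.

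The composition of each family is given as shares of its summed TPM, with no test. Tet3 made up 49.9% of TET transcripts in Idh1R132H, 48.6% in Idh2R140Q, 45.5% in Idh2R172K, 49.8% in Tet2KO and 49.9% in WT. Tet2 made up 21.5% in Idh2R172K (20.6 to 22.5% over libraries) and 17.9% in WT (16.6 to 20.4%). Among methyltransferases, Dnmt1 made up 74.2% in Idh2R172K, 74.0% in Tet2KO and 81.0% in WT. The share of Dnmt3a was 7.81% in Idh2R172K (7.29 to 9.05%) and 5.59% in WT (4.63 to 6.18%). The share of Mbd4 among the 3 glycosylases was 46.1% in Tet2KO (44.7 to 47.9%) and 37.7% in WT (34.4 to 45.1%), and its highest value in Tet2KO, 47.9%, was in library 2, where all 3 glycosylases were low.

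Dnmt1, Uhrf1 and Tdg varied together from library to library within groups, and the TET genes did so less closely. The values are Pearson r of log2(TPM + 1) after subtracting group means, over the 15 libraries left without the 5 that stood apart, given as a description of points that share library and depth. Dnmt1 had r = 0.91 with Tdg and 0.88 with Uhrf1, and Uhrf1 had 0.78 with Tdg. Tet3 had r = 0.73 with Dnmt3a and 0.72 with Tet1, and Tet2 had 0.67 with Tet3 and 0.53 with Tet1. Dnmt3a had r = 0.33 with Tet1 and 0.40 with Tet2, below the 0.59 of Dnmt3b with Tet2 and the 0.55 of Dnmt3b with Tet3. Between other pairs r was -0.61 for Tet1 and Uhrf1 and 0.02 for Dnmt1 and Dnmt3a. Over all 20 libraries the same measure was 0.61 for Tet1 and Uhrf1 and 0.82 for Dnmt1 and Dnmt3a, so the 5 libraries turned the sign of the first.

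**Figure D5:**
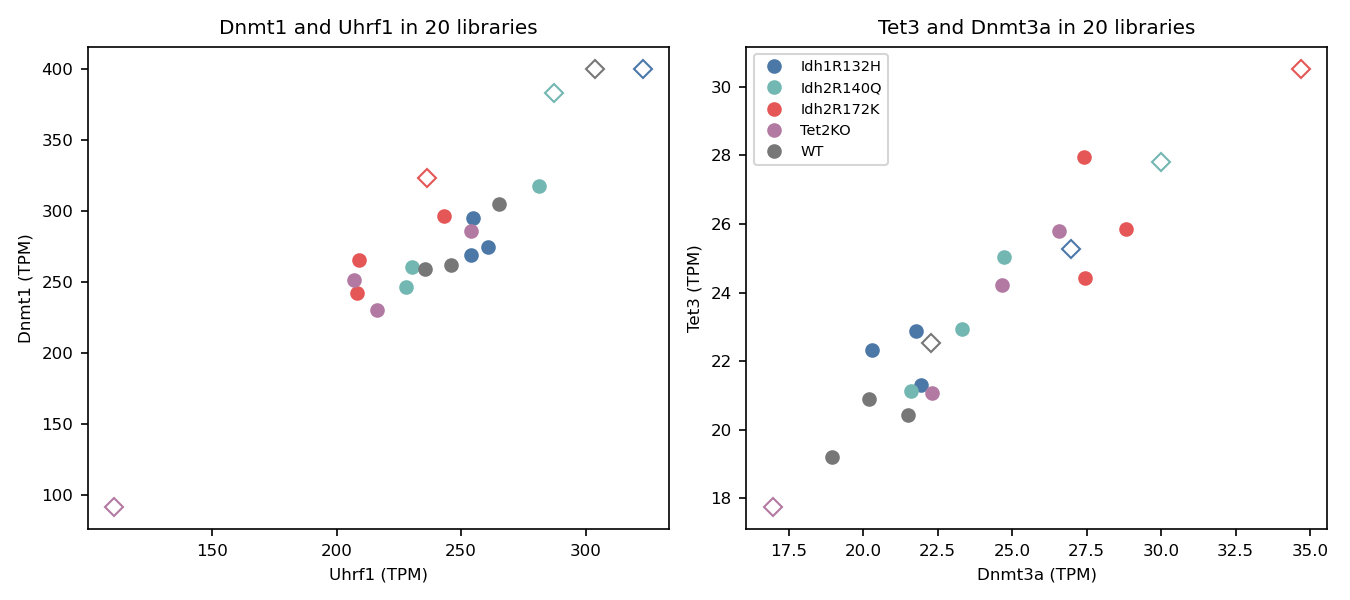
TPM of Dnmt1 against Uhrf1 and of Tet3 against Dnmt3a in the 20 libraries, coloured by group, with diamonds for the libraries numbered 4 of the Idh groups and WT and for Tet2KO library 2. Tet2KO library 2 lies at the low end of both panels, at 91.3 TPM for Dnmt1 and 17.0 TPM for Dnmt3a, and the 4 Idh2R172K libraries lie at 24.4 TPM or more for Tet3 and 27.4 TPM or more for Dnmt3a.

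The genes whose levels followed each member most closely over the 20 libraries were taken by Pearson r among 9582 candidates, and these values carry the same shared library effects. Tet3 and Dnmt3a were among each other's 3 nearest (r = 0.96). Dnmt3a was closest to Fgd5 (0.96), Tet2 to Resf1 (0.96) and Tet1 to Mast4 (0.97). Uhrf1 was closest to Nup93 (0.99) and next to Mcm2 (0.99), a subunit of the replicative helicase. Dnmt1 was closest to Mybbp1a (0.99), and Tdg to Espl1 (0.99), which encodes separase. Dnmt1 and Tdg both had Bub1b, a mitotic checkpoint kinase gene, among their 3 nearest. Dnmt3b was closest to Wac (0.98), Mbd4 to Hmgxb4 (0.98) and Smug1 to Mrtfa (0.96).

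Genes that work with the members were counted in 5 lists. In Idh2R172K against WT, where 15.4% of all genes tested were called, 0 of 8 methyl-CpG readers, 0 of 6 tested maintenance partners and 0 of 15 tested base excision repair genes were called, with median differences of 0.29, -0.18 and 0.03 against 0.11 for all genes tested. Of 10 tested TET partners (median 0.09) 1 was called, Cxxc5, a CXXC zinc finger protein that binds unmethylated CpG, at 161 TPM in Idh2R172K and 116 TPM in WT (0.44 ± 0.14, limma adjusted p = 0.0394). Of 11 tested S-adenosylmethionine cycle genes (median 0.09) 1 was called, Ahcy, which clears the S-adenosylhomocysteine left by methyltransferases, at 47.0 TPM in Idh2R172K and 60.4 TPM in WT (-0.36 ± 0.10, limma adjusted p = 0.0171). The call of Ahcy held in 19 of the 20 fits that left out 1 library (lost without Idh2R172K library 4), and that of Cxxc5 in 13. It was lost without library 3 of Idh1R132H, 2 or 4 of Idh2R172K, or any 1 of WT, and also without the 5 libraries that stood apart, with no filter on low values, in a fit of the 2 groups alone and with limma-voom. In Tet2KO against WT, where 7.05% of all genes tested were called, the calls were 1 of 8 readers, 0 of 6 maintenance partners, 1 of 15 repair genes, 0 of 10 TET partners and 1 of 11 S-adenosylmethionine cycle genes. Their medians were -0.03, -0.22, 0.08, 0.04 and -0.32 in that order, against 0.02 for all genes tested. The called genes were Zbtb4, a zinc finger reader of methyl-CpG (0.62 ± 0.15, limma adjusted p = 0.0225), Fen1, the flap endonuclease (-0.44 ± 0.12, limma adjusted p = 0.0394), and Shmt2, the mitochondrial serine hydroxymethyltransferase (-0.38 ± 0.10, limma adjusted p = 0.0318). Their calls held in 18, 9 and 17 of the 20 fits that left out 1 library. Zbtb4 lost its call without WT library 1 or 3, Shmt2 without Tet2KO library 4 or WT library 2 or 3, and Fen1 without any 1 of WT and 7 further libraries, and none of the 3 was called in a fit of the 2 groups alone. In Idh1R132H and Idh2R140Q against WT none of these lists had a call, with 229 and 407 of all genes tested at an unadjusted p under 0.05.

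Cell cycle and cell type genes were measured beside these values because Dnmt1 and Uhrf1 are made in dividing cells. Of 24 S phase genes, 0 were called higher and 4 lower in Idh2R172K against WT, with a median of -0.24 against 0.11 for all genes tested. In Tet2KO against WT 0 were called higher and 2 lower, with a median of -0.36 against 0.02 for all genes tested. Of all genes tested, 7.33% were called lower in Idh2R172K against WT and 2.02% in Tet2KO against WT. Their summed level was 3708 to 4434 TPM in Idh2R172K, 2478 to 4315 TPM in Tet2KO and 4236 to 5050 TPM in WT. Of 15 G2/M genes 0 were called in Idh2R172K and 2 were called lower in Tet2KO.

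The LSK label was checked on Kit, Ly6a (Sca1), Cd34, Procr, Slamf1, Flt3, Mecom and Hlf, all 8 of which passed the filter and had summed levels of 1092 to 1768 TPM over the 20 libraries. Of 7 erythroid markers, 5 were called lower in Idh2R172K against WT and 4 lower and 2 higher in Tet2KO against WT, where 15.4% and 7.05% of all genes tested were called in either direction. Their summed level was 53.4 to 89.2 TPM in Idh2R172K, 360 to 472 TPM in Tet2KO and 571 to 779 TPM in WT, and none was under 0.1 TPM in any group mean. Of 6 macrophage markers, 0 were called in Idh2R172K and 2 higher in Tet2KO, with sums of 40.6 to 62.2 TPM in Idh2R172K, 115 to 151 TPM in Tet2KO and 59.2 to 76.4 TPM in WT. Mature neutrophil markers had 0 calls of 7 in either comparison, and 4 of 5 stroma and endothelium markers did not reach a mean of 1 TPM. Of 6 T and NK markers, Cd3d, Cd3e, Cd3g and Trac did not reach that mean, while Nkg7 stood at 702 to 973 TPM in the 20 libraries and made up nearly all of the list's sum of 705 to 977 TPM. Klrb1c was called lower in Idh2R172K, at 1.08 TPM against 2.40 TPM in WT (-0.76, limma adjusted p = 0.0210). In Idh2R172K, B lineage markers had 2 calls higher and 1 lower of 5 tested, mast and basophil markers 1 higher and 2 lower of 4, megakaryocyte markers 1 higher and 1 lower of 4, and LSK markers 2 lower of 8. In Tet2KO, LSK markers had 1 call higher of 8 and mast and basophil markers 1 higher of 4, and B lineage, T and NK, megakaryocyte and stroma and endothelium markers had 0. The part of these genes in the values of the members was not tested.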

How the data were processed

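TPM for 46078 Ensembl gene IDs in 20 libraries were used as deposited by the authors. Per the submitters' processing notes, Trim Galore, STAR, featureCounts and mm10 were used. Versions, annotation and strand are not given in the sources used here. Columns were assigned to libraries from the mutation and the number in their names, although those of Idh2R140Q carry an Idh1 prefix. Symbols and exon lengths came from GENCODE M21, which named 45143 IDs. The 10 members and all lists were chosen with earlier results of these data known. limma 3.58.1 in R 4.3.3 was fitted on log2(TPM + 1) to the 5 groups with a variance trend for the 14176 genes whose mean reached 1 TPM, 2-sided, adjusted by Benjamini-Hochberg per comparison over all genes tested, at 0.05. The code was tested on simulated data. In Idh2R172K against WT it recovered 26% of genes changed by 0.5 on the log2 scale and 66% of those changed by 1. A member that was not called may therefore still differ. Counts were rebuilt from TPM and exon length, and 90.0 to 91.2% of values up to 30 reads per library were within 0.1 of a whole number. Alternatives were 13 settings, 20 fits that each left out 1 library, and 3 settings chosen after seeing the data (the length trend, the Gm23935 share as a covariate and the block without Tet2KO). Same-numbered libraries were taken as paired where all 4 correlations of their deviations from the group means passed 0.1, as in Idh1R132H with WT (lowest r = 0.158), Idh2R172K with Idh1R132H (0.147) and with Idh2R140Q (0.197), and Idh2R140Q with Idh1R132H (0.126). Idh2R172K with WT (-0.05), Idh2R140Q with WT (0.08) and Tet2KO with any group did not pass. The pairing comes from the data and not from the labels. By sex-linked transcripts, numbers 1 and 3 were female and 2 and 4 male in WT and the Idh groups. In Tet2KO numbers 1 and 2 were male and 3 and 4 female. In WT and the Idh groups the number thus goes with sex, and number 4 with the low Gm23935 share. What a block on the number removes cannot be told apart from these. Nothing says that pools came from separate litters or days, so p-values measure the spread between these pools. Named genes were the members, up to 6 called genes per comparison from 5 lists of partner genes, and the 3 genes most like each member (mean of at least 5 TPM, not sex-linked). The result of 1 partner gene is not reported here.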

Additional observations from a re-analysis of the deposited data

Results flagged for a closer look

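In 6 of the 50 sets of 4 libraries (10 genes in 5 groups), 1 library stood apart from the other 3 by more than Dixon's 95% critical value. Chance gives about 1 in 20 for a single set, but the sets share the same 20 libraries. They are not independent, so the 6 cannot be tested against that rate. All 6 were in the libraries already set apart by their Gm23935 share. Idh1R132H library 4 had the highest Dnmt3b (82.4 TPM), the highest Uhrf1 (323 TPM) and the highest Mbd4 (39.1 TPM) of its group. Tet2KO library 2 had the lowest Tdg (9.09 TPM) and the lowest Mbd4 (17.2 TPM). WT library 4 had the highest Mbd4 (37.5 TPM). The part of library preparation in these values was not tested.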

How the results depend on the processing

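In Idh2R172K against WT, where 4 members were called, leaving out 1 library gave 1 to 4 calls, leaving out the 5 libraries gave 6 and the replicate block without the Tet2KO libraries gave 8, with 46.5% of all genes called. That block added Dnmt3b (limma adjusted p = 0.0388), Mbd4 and Smug1 higher and Uhrf1 lower. The same-numbered libraries of Idh2R172K and WT did not pass the rule for pairing (lowest r = -0.05). Tet1, Tet2 and Dnmt3a were called under all 16 other settings and Tet3 under 15. In Tet2KO against WT, with 0 calls, leaving out 1 library gave 0 to 1. The replicate block and rescaled TPM gave 1 call each, quantile scaling 2, median-of-ratios scaling and leaving out the 5 libraries 3, library weights and limma-voom 4, and the length trend and the Gm23935 covariate 5. Equal counts were not always the same genes. Median-of-ratios scaling called Dnmt1, Uhrf1 and Tdg lower, and leaving out the 5 libraries called Tet2, Dnmt3a and Mbd4 higher. Library weights called Tet2, Tet3, Dnmt3a and Mbd4 higher, and limma-voom called Tet2 higher and Dnmt1, Uhrf1 and Tdg lower. Summed over the 6 comparisons between mutants, 2 calls became 1 with no filter, 9 with rescaled TPM, 10 with quantile scaling, 11 with library weights or the replicate block, 13 without the 5 libraries or with the length trend removed, 15 with limma-voom, 17 with median-of-ratios scaling, 22 with the Gm23935 covariate, and 1 to 6 with 1 library left out. In the F test over 5 groups, 1 call became 0 with no filter, 4 with quantile scaling, the replicate block or the length trend removed, 5 with rescaled TPM or library weights, 6 without the 5 libraries, 7 with limma-voom, 8 with median-of-ratios scaling or the Gm23935 covariate, and 0 to 3 with 1 library left out. The share of all genes called in the F test under each of these settings is not given here. The direction turned in Tet2KO against Idh2R140Q for Tet2 without the 5 libraries (0.33) or with the length trend removed (0.26), and for Mbd4 without the 5 libraries (0.35). It also turned against Idh1R132H for Dnmt3a with library weights (0.18) or the length trend removed (0.19), and against Idh2R172K for Mbd4 without the 5 libraries (0.24), differences that lay between -0.09 and -0.01 with all libraries. With 1 library left out, the difference of Tet2KO from Idh2R140Q ran from -0.13 to 0.19 for Tet2 and from -0.10 to 0.20 for Mbd4, and that from Idh2R172K from -0.19 to 0.11 for Mbd4. In all, 39 of the 100 member comparisons turned in at least 1 setting, and 0 of those 39 were called with all libraries (differences of -0.29 to 0.16). Among the larger, Tet2KO against Idh2R172K reached 0.05 for Tet3 (-0.29 with all libraries) and 0.06 for Uhrf1 (-0.25), Tet2KO against Idh1R132H reached 0.14 for Smug1 (-0.22) and 0.10 for Dnmt3b (-0.24), and Tet2KO against WT 0.13 for Smug1 (-0.18). The cause was not tested. Calls over all genes moved from 2177 in Idh2R172K against WT to 4586 with library weights, 4641 without the 5 libraries, 4175 with the Gm23935 covariate and 6594 with the block without Tet2KO. In Tet2KO against WT 999 calls became 45 in a fit of the 2 groups alone, 517 at a mean of at least 5 TPM, 1844 with rescaled TPM, 2325 with the length trend removed, 2477 with limma-voom, 2485 with the replicate block, 2492 with quantile scaling, 2781 with median-of-ratios scaling, 4178 with the Gm23935 covariate, 4515 without the 5 libraries and 5231 with library weights. Between mutants, Tet2KO against Idh2R172K had 3803 calls over all genes. They became 1190 in a fit of the 2 groups alone, 3609 with no filter, 4541 with the length trend removed and 4704 with rescaled TPM. Quantile scaling gave 4923, median-of-ratios scaling 4940, leaving out the 5 libraries 4979, the replicate block 5259 and library weights 5273. In Idh1R132H and Idh2R140Q against WT 0 members were called under every setting run. Each member had at least 753 reads in every library, and the part of depth or of the number of pools in these counts was not tested.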

Other observations

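Among the partner genes of the 5 lists, 14 were called in Tet2KO against Idh2R172K, where 26.8% of all genes tested were called. They were 1 of 8 tested readers, 2 of 6 maintenance partners, and 2 higher and 1 lower of 15 repair genes. The rest were 3 higher and 3 lower of 10 TET partners and 2 of 11 S-adenosylmethionine cycle genes. The 6 with the smallest p are given here, and their calls held in all 20 fits that left out 1 library. The reader Mbd2, which recruits the NuRD complex to methylated DNA, averaged 10.6 TPM in Tet2KO and 5.63 TPM in Idh2R172K (0.81 ± 0.17, limma adjusted p = 0.00273). Gadd45g and Gadd45b, stress-induced genes linked to active demethylation, were higher in Tet2KO by 1.15 ± 0.25 and 1.17 ± 0.27 (limma adjusted p = 0.00328 and 0.00456). Gadd45b averaged 27.8 TPM in Tet2KO and 12.5 TPM in Idh2R172K. Ahcyl1, a relative of S-adenosylhomocysteine hydrolase, averaged 27.9 TPM in Tet2KO and 78.4 TPM in Idh2R172K (-1.36 ± 0.29, limma adjusted p = 0.00305). Hdac2, a histone deacetylase, averaged 93.5 TPM in Tet2KO and 156 TPM in Idh2R172K (-0.76 ± 0.16), and Dcaf1, a ubiquitin ligase subunit that acts on TET proteins, averaged 30.6 TPM in Tet2KO and 54.6 TPM in Idh2R172K (-0.93 ± 0.24).

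Against Idh1R132H, 12 partner genes were called in Tet2KO, where 13.5% of all genes tested were called. They were 2 of 8 tested readers, 1 of 6 maintenance partners and 1 of 15 repair genes. The rest were 1 higher and 2 lower of 10 TET partners and 5 of 11 S-adenosylmethionine cycle genes. The first 6 by p were Zbtb4 (0.66), Hdac2 (-0.71), Fen1 (-0.50), Ahcyl2 (-0.74), Mthfd1 (-0.65) and Ahcy (-0.34). Zbtb4 and Hdac2 held in all 20 fits that left out 1 library, Fen1 in 19, Ahcyl2 and Mthfd1 in 17 and Ahcy in 14. Against Idh2R140Q, 5 were called in Tet2KO, Hdac2 (-0.71), Ahcyl2 (-0.83), Fen1 (-0.41), Mbd2 (0.58) and Gadd45g (0.83), where 9.54% of all genes tested were called. By list this was 1 of 8 tested readers, 0 of 6 maintenance partners and 1 of 15 repair genes. TET partners had 1 higher and 1 lower of 10, and S-adenosylmethionine cycle genes 1 of 11. The calls of Fen1, Mbd2 and Gadd45g there held in 5, 4 and 6 of the 20 fits. Fitting only the 2 groups compared ended each named Tet2KO call against Idh1R132H and Idh2R140Q, and those of Mbd2 and Dcaf1 against Idh2R172K. In Idh2R172K against Idh1R132H Ahcy (-0.38) and Cxxc5 (0.46) were called, and their calls held in 20 and 15 of the 20 fits. Ahcy averaged 47.0 TPM in Idh2R172K, 61.2 TPM in Idh1R132H and 60.4 TPM in WT.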
